A study of Mus musculus with 5 samples.

Results

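The miR-29 family was followed across 5 mouse tissues through every mouse probe named miR-29a, miR-29b or miR-29c, star strands included. The rule used names only and found 6 of 598 mouse microRNA probes, namely 3 guide strands and 3 star strands (a star is the array's mark for the less abundant arm of a hairpin). Of these, 4 gave 50 or more background-subtracted intensity units, the detection floor, on all 5 arrays: mmu-miR-29a, mmu-miR-29b, mmu-miR-29c and mmu-miR-29a*, written below without the mouse prefix. The probes for miR-29b* and miR-29c* stayed under that floor in every tissue. The RNA came from 3 fat depots (brown, inguinal and epididymal) and 2 leg muscles (soleus and gastrocnemius) of C57BL/6 mice aged 2 to 3 months, with no allele or treatment named. Total RNA of each tissue was run on 1 one-colour array that captures mature microRNAs with locked nucleic acid probes, and the labels give no number of animals. There are therefore no replicates, no test was possible and no difference has a check against animal-to-animal variation. The only error available is the spread of the 4 spots that carry each probe, which covers noise on the array but not animals, extraction or labelling.

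A microRNA loads into an Argonaute protein and pairs with messenger RNAs mainly through its seed, the bases from the second to the eighth, which lowers their translation and stability. The miR-29 family is best known for repressing collagens, elastin and other matrix genes, and its loss in heart, kidney and liver accompanies fibrosis. In rodent fat, muscle and liver it has also been found raised in diabetes, and forced expression in cultured fat cells dampens the insulin response. Fat and muscle are the main sites of insulin-driven glucose uptake, and both keep a matrix made by fibroblast-like cells.

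The 3 guide strands share 1 seed and differ only further along, which is why their sequences are shown together (RefSeq, assembly GRCm38.p6, 5′ to 3′, seed in capitals).
miR-29a-3p: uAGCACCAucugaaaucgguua
miR-29b-3p: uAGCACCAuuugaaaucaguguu
miR-29c-3p: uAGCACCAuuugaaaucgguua
Counted from 1 at the 5′ end, miR-29a and miR-29c differ at 1 of 22 positions, C10U, where the first base is that of miR-29a. The first 22 bases of miR-29a and miR-29b differ at 4 positions, C10U, G18A, U21G and A22U. Those of miR-29b and miR-29c differ at 3, A18G, G21U and U22A. The seed AGCACCA occurs in 3 of the 1679 mature mouse microRNAs of the table, these guides alone. Probes for guides this alike may bind each other's target, most of all miR-29a and miR-29c, so values of the separate members are uncertain to that extent.

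The star strands come from the opposite arms and carry different seeds. Those matched by name are shown because miR-29a*, unlike the guides, was lowest in brown fat under the authors' scaling, though near the floor.
miR-29a-5p: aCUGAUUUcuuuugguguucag
miR-29c-5p: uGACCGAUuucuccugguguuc
The star probe of miR-29a was matched to miR-29a-5p and that of miR-29c to miR-29c-5p. There are 2 possible partners for miR-29b*, from 2 hairpins, and the probe was assigned to neither.

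The family lies in 2 pairs of hairpins (GRCm38.p6). Mir29a, at chr6:31062660-31062747, and Mir29b-1, at chr6:31063023-31063093, lie 275 bases apart on the minus strand of chromosome 6. Mir29b-2, at chr1:195037040-195037120, and Mir29c, at chr1:195037547-195037634, lie 426 bases apart on the plus strand of chromosome 1, within the span of the long noncoding RNA gene A330023F24Rik. Both pairs give the same miR-29b guide, so the miR-29b probe reads the output of 2 loci and cannot separate them, while miR-29a and miR-29c each come from 1.

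The authors' scale, by which each intensity was divided to give the normalized intensity, lay between 396 and 467.75 units, and 148 to 170 mouse probes per array reached the floor. The median over spike-in probes was lower on the white fat arrays, at 501 units for inguinal and 599.5 for epididymal fat, than on the other 3, at 902 to 990 units. The muscles and brown fat carried markers of their labels, while no marker of white fat cells was listed. The summed normalized intensity of 4 striated muscle microRNAs was 33.5 in soleus and 31.5 in gastrocnemius, against 6.36 in brown, 0.483 in inguinal and 0.357 in epididymal fat. All 4 of them were detected in brown fat, where miR-133a read 1605 units, and their part in the brown fat values was not tested. The sum of 3 brown adipocyte microRNAs was 5.40 in brown fat and 1.24 to 2.43 in the other tissues. The sum of 5 leukocyte microRNAs was 22.3 in inguinal and 10.5 in epididymal fat, against 2.94 to 5.66 elsewhere. In whole tissue, fewer cells of a type and less of a microRNA per cell cannot be told apart.

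All 3 guides were highest in brown fat under the authors' scaling. For mmu-miR-29a, made with miR-29b from the chromosome 6 pair, the normalized intensity was 8.53 ± 0.968 in brown, 4.94 ± 0.297 in inguinal and 7.08 ± 0.336 in epididymal fat, 7.40 ± 0.723 in soleus and 6.06 ± 0.524 in gastrocnemius (SD of 4 spots). In background-subtracted units the brown fat spots read 3312, 3636, 3971 and 4314, and the inguinal spots 1981, 2091, 2062 and 2276. Under this scaling inguinal fat was lowest, its highest spot under the lowest gastrocnemius spot. It stayed lowest in 4 of 9 other settings, namely no scaling, the mean of spots and both changes of floor. A change of floor cannot move the level of a detected member. The log2 ratio of inguinal fat over gastrocnemius ran from -0.30 to 0.60. The other neighbours in the order brown, soleus, epididymal, gastrocnemius overlapped in their spots.

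For mmu-miR-29b, the guide shared by both loci, the normalized intensity was 0.961 ± 0.124 in brown, 0.699 ± 0.0936 in inguinal and 0.477 ± 0.0881 in epididymal fat, 0.591 ± 0.0610 in soleus and 0.555 ± 0.0628 in gastrocnemius (SD of 4 spots). The brown fat spots read 371, 396, 490 and 461 units, and the epididymal spots 160, 173, 205 and 238. Under this scaling brown fat stood above inguinal fat with no overlap of spots, but barely. Its lowest spot was 0.832 and the highest inguinal spot 0.830 in normalized intensity. Each later neighbour in the order inguinal, soleus, gastrocnemius, epididymal overlapped the one before it. Inguinal fat, lowest for miR-29a, was second for miR-29b, and epididymal fat was last. It was last in 8 of 9 other settings, all but spike-in scaling, counting both floor changes, which cannot move it.

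For mmu-miR-29c, made with miR-29b from the chromosome 1 pair, the normalized intensity was 1.96 ± 0.121 in brown, 1.02 ± 0.0991 in inguinal and 1.16 ± 0.0861 in epididymal fat, 1.35 ± 0.108 in soleus and 1.67 ± 0.207 in gastrocnemius (SD of 4 spots). The brown fat spots read 815, 925, 910 and 838 units, the gastrocnemius spots 658, 722, 702 and 534. Brown fat again lay above the next tissue without overlap, here gastrocnemius, and both white depots lay below both muscles in their medians under this scaling. Gastrocnemius and soleus overlapped, as did soleus and epididymal, and epididymal and inguinal fat.

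The star strand of the miR-29a hairpin, normally the arm that is discarded, had brown fat at the bottom of its order. Its normalized intensity was 0.228 ± 0.0409 in brown, 0.245 ± 0.0320 in inguinal and 0.307 ± 0.0732 in epididymal fat, 0.280 ± 0.0301 in soleus and 0.275 ± 0.0709 in gastrocnemius (SD of 4 spots). These were 101.5 to 131 units, near the floor, and every pair of neighbours overlapped. The miR-29b* probe read 13 to 21 units and had no usable pattern. The miR-29c* probe read 16.5 units in brown, 7.5 in inguinal and 11.5 in epididymal fat, 31 in soleus and 48.5 in gastrocnemius. Its gastrocnemius value was just under the floor, so no ratio was taken, although its spots there did not overlap those of soleus.

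**Figure D1:**
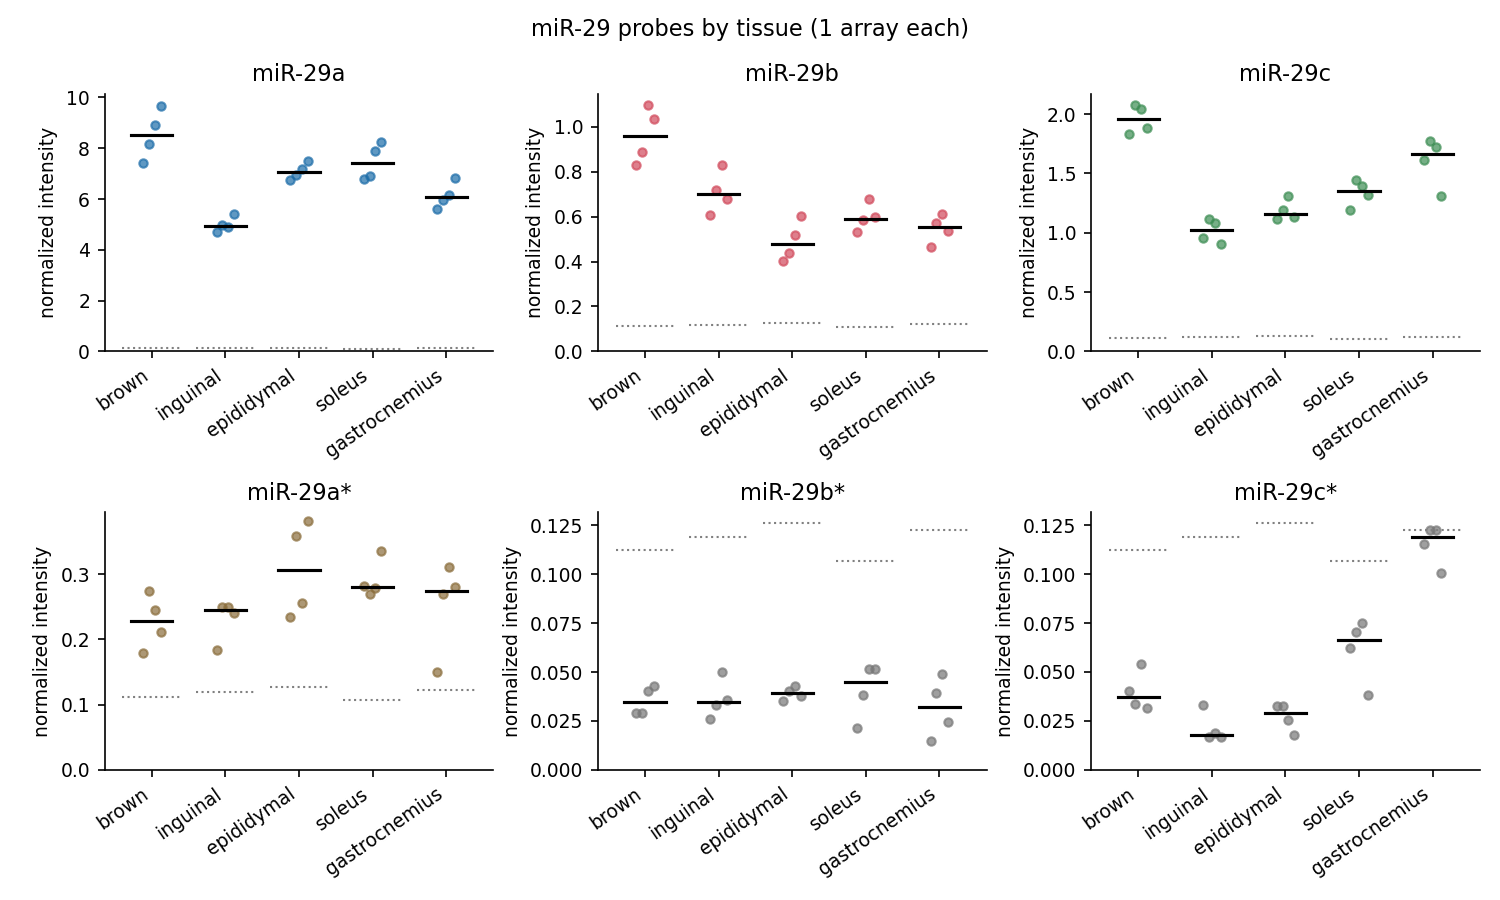
Normalized intensity (vertical axis, linear, from 0) of the 6 miR-29 probes in each tissue: points are the 4 spots of the probe on the tissue's 1 array in slide order, the black line is the deposited value (their median), and the dotted line is the floor of 50 units on that array. Under the authors' scaling the 3 guides are highest in brown fat, miR-29a* is lowest there, and miR-29b* and miR-29c* lie under the floor.

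Brown over white fat is the comparison of a heat-producing depot with lipid-storing ones. The microRNA miR-29c was 1.92-fold higher in brown than in inguinal fat and 1.69-fold higher in brown than in epididymal fat, miR-29a was 1.73-fold and 1.21-fold higher against the same depots, and miR-29b 1.37-fold and 2.01-fold. For each guide and each depot, all 4 spots were higher in brown fat at the same slide position under the authors' scaling. This covers noise on the array but not its scaling, and the share of all microRNAs with such agreement was not counted. The signs of miR-29a over epididymal fat and miR-29b over inguinal fat changed in other scalings, and those of the other 4 guide ratios did not. The lowest log2 values of these 4 were 0.02 for miR-29a and 0.18 for miR-29c over inguinal fat. Over epididymal fat they were 0.59 for miR-29b and 0.32 for miR-29c. The rule for a difference, at least 2-fold in every pair of the comparison, was met by 0 of the 4 detected members, against 14 percent of the 164 mouse microRNAs with a ratio in both pairs. On the log2 scale, the median over all microRNAs detected in both tissues was 0.26 for brown over inguinal fat and -0.12 for brown over epididymal fat. For miR-29a* the log2 ratio was -0.11 against inguinal and -0.43 against epididymal fat. Endothelial microRNAs, like the guides, were higher in brown than in white fat. The sum of miR-126-3p and miR-126-5p was 13.2 in brown, 6.30 in inguinal and 9.64 in epididymal fat. Between the white depots it ran with miR-29a and miR-29c but opposite to miR-29b. The striated muscle, brown adipocyte and red cell sums were higher in brown than in either white depot. The leukocyte and epithelial sums were lower. The sum of 4 fibroblast and smooth muscle microRNAs was 9.44 in brown, 6.36 in inguinal and 10.8 in epididymal fat. Their median log2 ratio in brown over white fat was -0.53. The markers' part in the miR-29 values was not tested.

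Taken pair by pair, the ratio of miR-29b in brown over epididymal fat was the single one past 2-fold among the 40 ratios of 4 members over 10 pairs of arrays. Its log2 value was 1.01 with an SD of 0.14 over the spots, and 3 of the 4 spots were past 2-fold. In that pair 23 percent of mouse microRNAs were past 2-fold, and over all pairs 27.7 percent of ratios were (500 of 1808). Such shares, here and in the comparisons, include microRNAs under the floor on 1 side, whose ratio is a bound. The 4 members were detected on every array, so the sets compared are unlike in this. In the other pairs with 0 of 4 members past 2-fold, the share of all microRNAs past it was 24.4 percent for brown over inguinal, 31.9 percent for brown over soleus and 29.6 percent for brown over gastrocnemius. It was 38.6 percent for inguinal over soleus, 36.1 percent for inguinal over gastrocnemius, 35.8 percent for epididymal over soleus and 32.6 percent for epididymal over gastrocnemius. With the mean of the spots in place of their median the ratio was under 2-fold, and over 9 other settings its log2 value ran from 0.59 to 1.18.

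Brown fat over muscle sets the heat-producing depot against 2 muscles that differ in fibre type. In this comparison 0 of the 4 members met the rule, against 24.3 percent of 181 microRNAs. The guide miR-29b had log2 ratios of 0.70 over soleus and 0.79 over gastrocnemius, miR-29c 0.53 and 0.23, and miR-29a 0.21 and 0.49. Compared at the same slide position under the authors' scaling, all 4 spots of each guide were higher in brown fat than in either muscle. The spot ranges of miR-29a in brown fat and soleus still overlapped. The signs of miR-29a over soleus and miR-29c over gastrocnemius changed in other scalings. The log2 median over all microRNAs was 0.20 for soleus and 0.14 for gastrocnemius, so that the miR-29a value over soleus lay at that median. For miR-29a* the log2 ratios were -0.30 and -0.27, with 3 of 4 and 2 of 4 spots lower in brown fat.

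White fat over muscle gave no member past the rule either, 0 of 4 against 23.5 percent of 166 microRNAs. The guide miR-29c was lower in white fat in 4 of 4 pairs, with log2 ratios between -0.71 (inguinal over gastrocnemius) and -0.22 (epididymal over soleus). Every spot was lower than the spot at the same slide position, although the ranges of epididymal fat and soleus overlapped. That direction turned with spike-in scaling, where the same 4 ratios ran from 0.03 to 0.42, and with normexp and quantile normalization both soleus pairs turned, at 0.13 and 0.15. The miR-29b guide was split, at log2 0.24 over soleus and 0.33 over gastrocnemius in inguinal fat, against -0.31 and -0.22 in epididymal fat. For miR-29a 3 of 4 pairs were lower in white fat, and epididymal over gastrocnemius, at log2 0.22, was higher. Of the guides' ratios in this comparison, the 2 of miR-29b in inguinal fat kept their sign in all 9 other settings. Both floor changes are among these settings and cannot move the ratios. Each of the rest changed its sign in at least 1. With all fat set against all muscle as muscle over fat, 0 of 4 members met the rule, against 15.8 percent of 165 microRNAs.

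Between the white depots, inguinal over epididymal fat, the guides had opposite signs under the authors' scaling. The log2 ratio was -0.52 for miR-29a and -0.19 for miR-29c, lower in inguinal fat at 4 of 4 slide positions each. It was 0.55 for miR-29b, higher at 4 of 4 slide positions. The log2 median over all microRNAs was -0.41, so miR-29a lay near it and miR-29b above it. Over the other settings miR-29b stayed positive, from 0.53 to 1.10, while miR-29a ran from -0.52 to 0.03 and miR-29c from -0.22 to 0.36, and with the 75th percentile over detected probes all 3 guides were higher in inguinal fat. None passed 2-fold, 0 of 4 against 17.4 percent of 172 microRNAs. This pair also differed in its cell markers: 4 of 5 leukocyte microRNAs were at least 2-fold higher in inguinal fat, and 4 of 5 epithelial microRNAs were detected in epididymal fat with none in inguinal fat. Their part in the miR-29 values was not tested.

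Between the muscles, soleus over gastrocnemius, the slow fibre microRNAs miR-208b and miR-499 were both higher in soleus, by 27.2-fold and at least 11.6-fold. Under the authors' scaling each detected miR-29 member differed by at most 1.23-fold between these muscles. The log2 ratios were 0.29 for miR-29a, 0.09 for miR-29b, -0.30 for miR-29c and 0.03 for miR-29a*, and the signs of miR-29b and miR-29a* changed in other scalings. Over the settings miR-29a ran from 0.17 to 0.48 and miR-29c from -0.42 to -0.10. Members past 2-fold numbered 0 of 4, against 5.11 percent of 176 microRNAs.

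**Figure D2:**
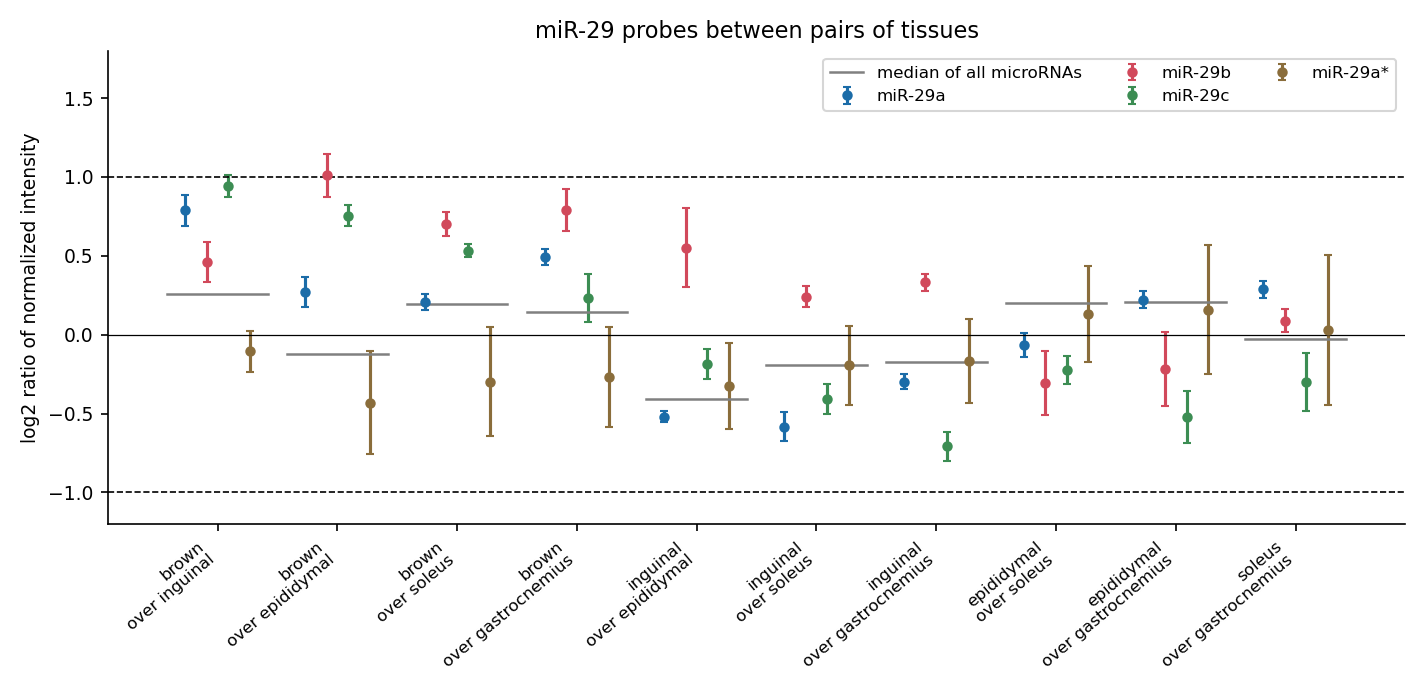
Log2 ratio of normalized intensity (vertical axis) of the 4 detected miR-29 members for the 10 pairs of arrays, first tissue over second: points are the deposited medians, bars the SD of the ratios of 4 spots at the same slide position, grey lines the median of all microRNAs detected in both tissues, dashed lines 2-fold either way. One point, miR-29b in brown over epididymal fat at 1.01, lies past a dashed line, and its bar crosses it.

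The ratio of 2 probes on 1 array does not depend on how the array was scaled by a single factor, and it was compared between tissues rather than read as a level. The ratio of miR-29a to its own star strand was higher in brown fat than in each other tissue: 1.86-fold against inguinal fat, 1.62-fold against epididymal fat, 1.42-fold against soleus and 1.70-fold against gastrocnemius. On the log2 scale these were 0.89 ± 0.16, 0.70 ± 0.21, 0.50 ± 0.14 and 0.76 ± 0.24 (SE from 4 spots on each array). Both arms come from 1 hairpin, and the star probe was near the floor on all 5 arrays.

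The ratio of miR-29b to miR-29a, guides of the same chromosome 6 pair, was 2.10-fold higher in inguinal than in epididymal fat (log2 1.07 ± 0.14, SE from spots). Inguinal fat had the highest value of this ratio and epididymal fat the lowest. The ratio of miR-29c to miR-29b, guides of the chromosome 1 pair, was 0.487-fold as high in inguinal fat as in gastrocnemius (log2 -1.04 ± 0.13). The ratio of miR-29c to miR-29a, the most alike guides, was 0.597-fold as high in epididymal fat as in gastrocnemius (log2 -0.74 ± 0.16), the widest gap between 2 tissues for that ratio. For these 3 guide ratios the pair of tissues with the widest gap was chosen after the values were seen, and the spot errors say nothing of variation between animals.

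**Figure D3:**
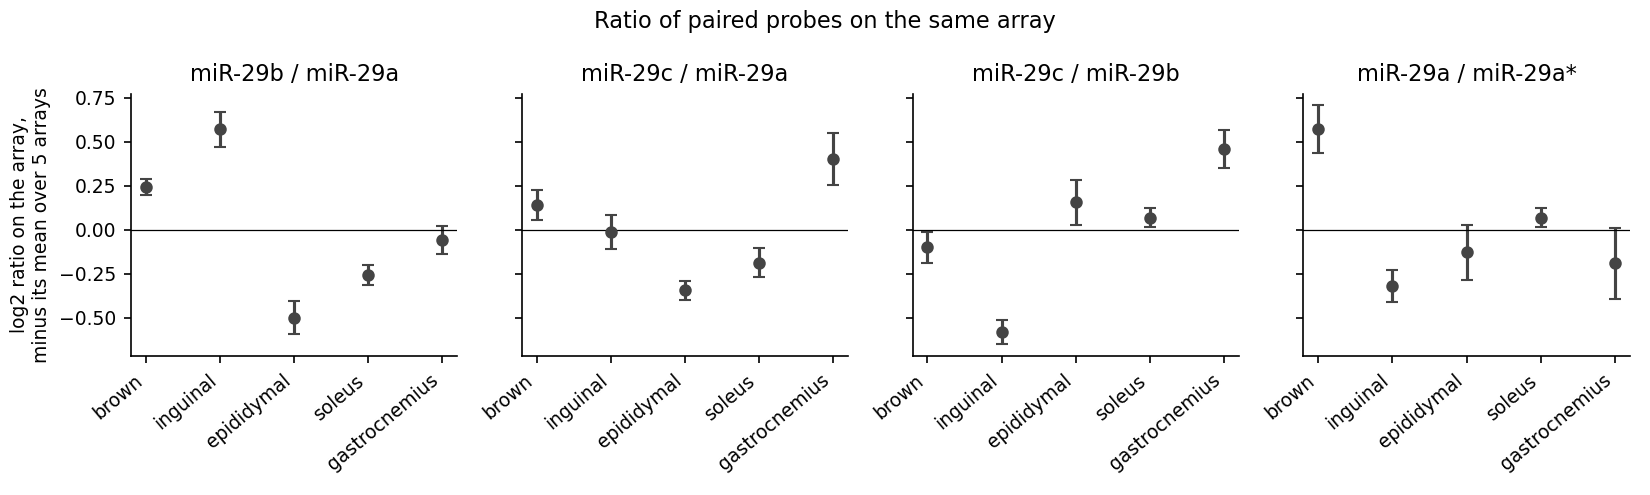
Log2 ratio of 2 miR-29 probes on the same array (vertical axis, shared), minus its mean over the 5 arrays, by tissue: points are from deposited medians and bars are the SE from 4 spots. The ratio of miR-29b to miR-29a is highest in inguinal and lowest in epididymal fat, 2.10-fold apart, and the ratio of miR-29a to miR-29a* is highest in brown fat.

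Against the 123 mouse microRNAs detected on all 5 arrays, miR-29a* varied little and the guides somewhat less than the median microRNA. From the highest to the lowest tissue the log2 range was 0.79 for miR-29a, 1.01 for miR-29b, 0.94 for miR-29c and 0.43 for miR-29a*, where the median microRNA had 1.15. Smaller ranges than these were seen for 27, 46, 43 and 3 of the 123 microRNAs, in the same order of members. Brown fat was the highest tissue for 27 of the 123 microRNAs, and inguinal fat the lowest for 53, the place it held for miR-29a and miR-29c under the authors' scaling. Brown fat was the lowest tissue, as for miR-29a*, in 14.

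**Figure D4:**
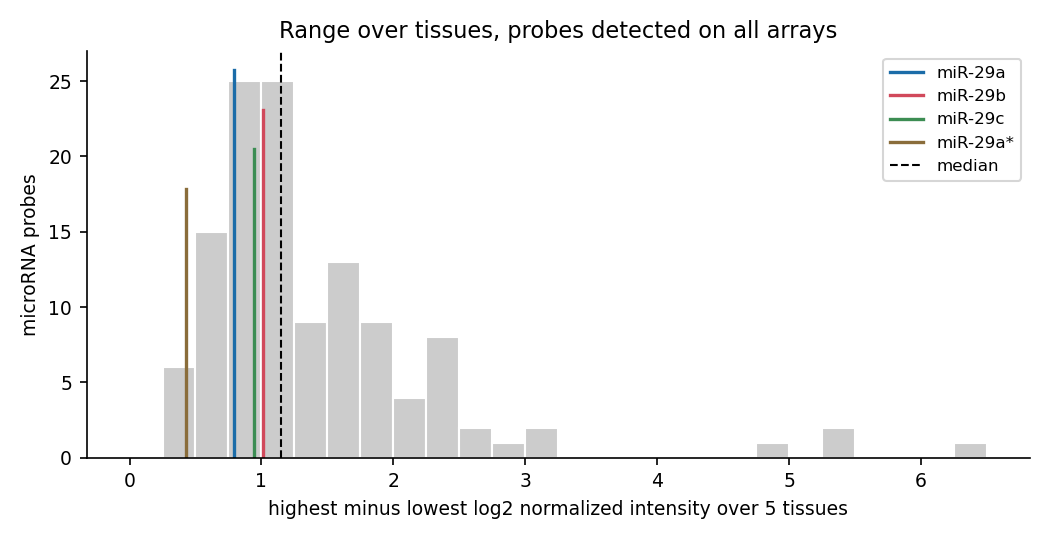
Number of mouse microRNA probes detected on all 5 arrays (vertical axis, 123 in all) by their log2 range from the lowest to the highest tissue (horizontal axis): coloured lines mark the 4 miR-29 members and the dashed line the median of 1.15. All 4 members lie to the left of the median.

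The microRNAs most like each member were found by the root mean square distance between log2 levels centred on their own mean over the 5 arrays. Nearest to miR-29a were miR-30b at 0.059, miR-16 at 0.063, miR-126-3p at 0.10, let-7g at 0.14 and miR-26b at 0.14, where the median of the 122 compared was 0.43. For miR-29b the nearest were miR-15a at 0.25, miR-322, miR-709, miR-30e and miR-320, and for miR-29c miR-126-3p at 0.20, miR-30d, miR-15a, miR-503* and miR-494. For miR-29a* they were let-7i at 0.083, let-7f, miR-195, miR-125b-5p and miR-186. No member was among the 5 nearest of another. From miR-29a, miR-29c was the 29th nearest (0.26) and miR-29b the 50th (0.37). From miR-29b, miR-29c was the 11th (0.34) and miR-29a the 15th, and from miR-29c, miR-29a was the 12th and miR-29b the 29th. Distances rest on 5 values that share the arrays and their scaling.

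Other microRNAs reported to act on the same processes were counted from 2 lists. Of 10 reported to act on matrix or fibrosis genes, all had ratios in each comparison. In brown over white fat 1 was at least 2-fold higher in both pairs (miR-133a, a muscle microRNA that restrains fibrosis in heart, 13.7-fold) and 2 were lower (miR-21, which promotes fibrosis in heart and kidney, 2.40-fold, and miR-214, 2.03-fold), with a median log2 ratio of 0.03 against 0.10 over all tested and 14 percent of all microRNAs called. In brown fat over muscle 0 were higher and 3 lower, namely miR-133a, miR-214 and miR-199a-5p, with a median of -0.29 against 0.11 and 24.3 percent of all microRNAs called. In white fat over muscle miR-15b was higher by 2.05-fold and miR-133a lower by 46.8-fold, where 23.5 percent of all were called. Between the white depots and between the muscles 0 of the 10 passed, where 17.4 and 5.11 percent of all did.

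Of 10 microRNAs reported to act on insulin signalling, 8 had ratios (7 between the white depots) and miR-33 and miR-802 were under the floor. In brown over white fat miR-107, whose silencing improves insulin sensitivity in obese mice, was 2.55-fold higher and miR-223, abundant in myeloid cells, 2.48-fold lower, with a median log2 ratio of 0.34 against 0.10 over all tested. That is 2 of 8, where 14 percent of all were called. In brown fat over muscle miR-103, the near twin of miR-107, was 2.04-fold higher and miR-107 3.37-fold higher, with a median of 0.41 against 0.11. That is 2 of 8, where 24.3 percent of all were called. In white fat over muscle 3 were higher (miR-103, miR-223 and miR-34a) and miR-27b was lower, 4 of 8 where 23.5 percent of all were called. In inguinal over epididymal fat miR-103 was 2.08-fold lower, 1 of 7 where 17.4 percent of all were called, and between the muscles 0 of 8 passed, where 5.11 percent of all did. The folds given are the smallest of a comparison's pairs. Of the microRNAs detected on all 5 arrays, 39.8 percent (49 of 123) passed at least 1 of the 6 comparisons, as did 4 of 9 on the matrix list, 4 of 7 on the insulin list and 0 of 4 miR-29 members.

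The order of tissues depended on how arrays were scaled. Among 6 other scalings brown fat stayed highest in 4 for miR-29a, 3 for miR-29b and 5 for miR-29c, while it stayed lowest in 6 of 6 for miR-29a*. That probe was near the floor, and its log2 ratio of brown over inguinal fat ran from -0.87 to -0.02 over the settings. For miR-29b, brown fat lay above epididymal fat, soleus and gastrocnemius in each of 9 settings, of which both floor changes cannot move a level. Inguinal fat lay above the same 3 tissues in each, while the order of brown and inguinal fat changed. For miR-29c, brown fat lay above inguinal fat, epididymal fat and soleus in each. For miR-29a, brown fat lay above inguinal fat and gastrocnemius, and soleus above gastrocnemius, in each. Its log2 ratio of brown over inguinal fat ran from 0.02 to 0.87, lowest with spike-in scaling.

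**Figure D5:**
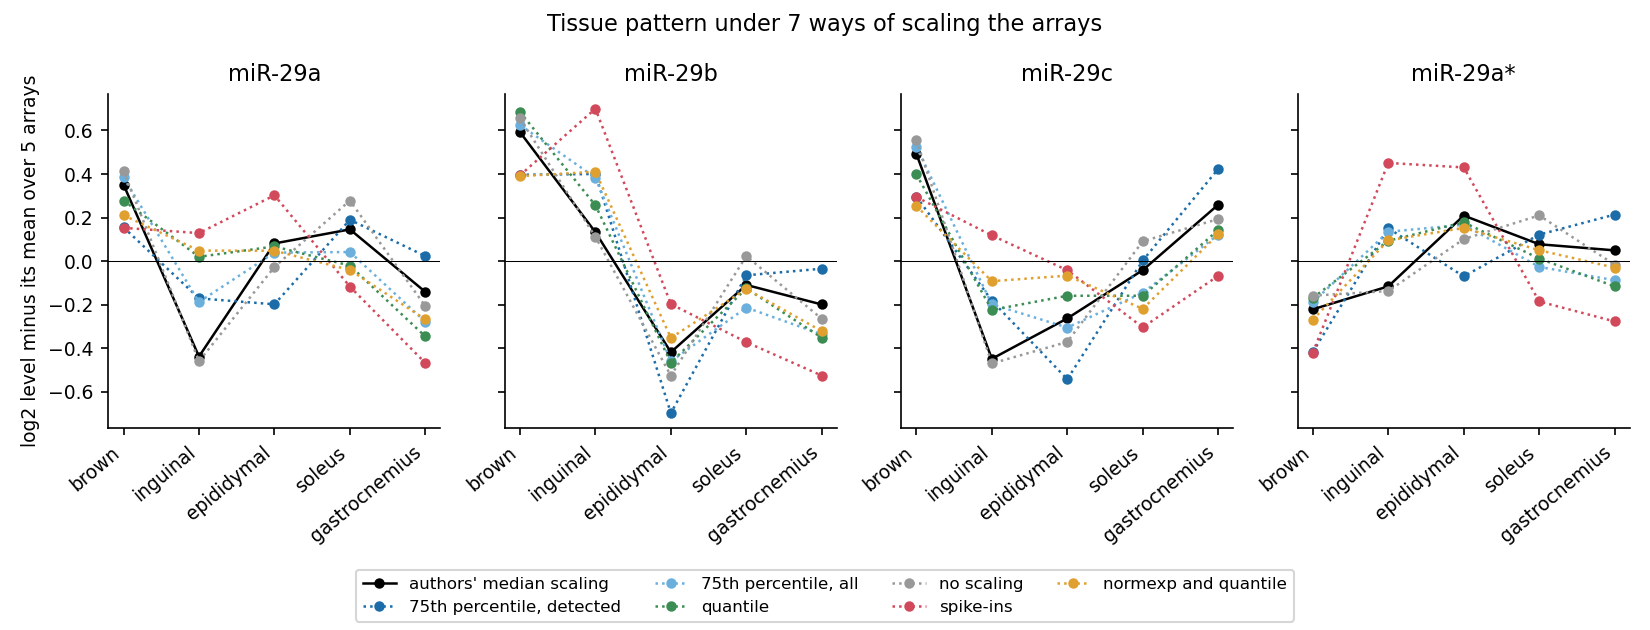
Log2 level of the 4 detected miR-29 members by tissue, minus its mean over the 5 arrays (vertical axis, shared), under the authors' median scaling (black) and 6 others (colours). Brown fat is lowest for miR-29a* under each, narrowly with no scaling, and inguinal fat moves most between scalings for all 4 members.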

How the data were processed

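Mouse tissue RNA was hybridised to miRCURY LNA arrays, 1 per tissue. The deposited intensity values, per the file headers, are given with and without local background for each of 4 spots, and a probe's value is the median over its spots after background subtraction. The authors then divided by a median taken on each array from microRNAs that passed 50 units everywhere, per the file headers, so the normalized intensity is a ratio to that median. The spot medians were recomputed and matched. The set of microRNAs behind the array median was not rebuilt, and each array's scale was taken from the deposited values. Dividing by that scale matched the normalized intensity, with a largest relative gap of 8.19e-14. This checks the division but not how the median was taken. The scanner software is not given in the sources used here.

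Ratios were taken between normalized intensities (Python 3.11.15, numpy 2.4.6, pandas 2.3.3). A value under 50 units on 1 side gave a bound and on both sides no ratio; a microRNA counted as different at 2-fold or more in every pair. Spot errors pair spots by slide position. Counting was tested on data simulated with spot noise alone, without differences in array scaling, labelling or animals. Alternatives were 6 scalings (75th percentile over probes detected on all arrays or over all mouse probes, quantile, no scaling, spike-ins, and normexp with an offset of 50 plus quantile in limma 3.58.1 under R 4.3.3), a floor of 100 units, no floor, and the mean of spots. Neither floor change could move a level or ratio of the 4 members detected on all arrays, so both leave order and sign untested. Arrays give no depth, so their number limits the precision. Sequences are from RefSeq (GRCm38.p6). The members, the gene lists and the rules, including the named nearest microRNAs, were chosen with earlier results of these data known. The authors' lists of differing microRNAs and correlation table were not used here.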

Additional observations from a re-analysis of the deposited data

How the results depend on the processing

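No paired analysis was possible because there was 1 array per tissue. In the 6 comparisons, 0 members met the 2-fold rule, and this held under the 9 alternatives with 2 exceptions: 1 member, miR-29b, in inguinal over epididymal fat with the 75th percentile over probes detected on all arrays, and 1 member, miR-29c*, in white fat over muscle with no floor, where its values were under 50 units. Over the 10 single pairs the count of 1 became 2 with that percentile, 2 with quantile normalization, 2 with no scaling, 2 with spike-in scaling, 0 with normexp and quantile normalization, 0 with the mean of spots and 7 with no floor, of which 6 were miR-29c*. That count was added after seeing the data, as were the within-array ratios. Of the 40 single ratios, 17 kept their sign in every setting (3 of miR-29a, 6 of miR-29b, 4 of miR-29c and 4 of miR-29a*). Most sign changes came with spike-in scaling (15) and the 75th percentile over detected probes (12). The 1 ratio past 2-fold under the authors' scaling, miR-29b in brown over epididymal fat, kept its sign. Scaling moved the log2 median of all microRNAs by up to 0.89 (inguinal fat over gastrocnemius, spike-ins). The ratio of miR-29a to miR-29a* in brown over inguinal fat ran from 1.43-fold to 1.86-fold over these settings, and that of miR-29b to miR-29a in inguinal over epididymal fat from 1.70-fold to 2.10-fold. Signal over background limits the star strands: viral probes reached a 95th percentile of 77.6 units on the soleus array, above the floor. On the other arrays that percentile was 20.65 to 45.4 units. The highest viral probe read 130 to 245.5 units and was above miR-29a* on each array.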
